A study of Mus musculus with 8 samples.

Results

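Ribosomal protein genes and their retrocopies were followed through 8 RNA-seq libraries of mouse embryonic stem cells (mESCs) and cells made from them. The members were all genes whose GENCODE vM1 symbol is Rpl or Rps followed by a number, together with Rpsa and Rplp0 to Rplp2, with the Rps6 kinases left out. This gave 237 of the 37620 genes in the count files. Of these, 85 were parent genes and 152 were copies, which carry -ps in their symbol. The 8 libraries, each 1 sample of bulk RNA, came from R1 mESCs in 2i for 5 days, in 2iJ for 5 days, and in 2iJ+B-A for 2, 5 and 11 days, R1-derived mesoderm progenitors on days 3 and 4, and cells sorted for a Cdx2-GFP reporter after 2 days in 2iJ+B-A. The 2i medium held 3 µM CHIR99021, which inhibits GSK3, and 1 µM PD0325901, which inhibits MEK. In 2iJ, 2.0 µM of a JAK inhibitor was added, and 2iJ+B-A further held 10 ng/ml BMP4 and 10 µM of an Alk5 inhibitor. The mesoderm progenitors came from embryoid bodies given BMP4, Activin A and Wnt3a, and the day 4 cells also had the Wnt secretion inhibitor IWP-2. The sorted cells came from another line, CDX2-GFP, so line, sort and library cannot be told apart in any value of that library.

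A ribosome holds a small and a large subunit, each built on ribosomal RNA from one copy of most ribosomal proteins, and the acidic stalk proteins recruit elongation factors. The parent genes are expressed in every cell type, and their mRNAs are among the most abundant of growing cells such as mESCs. Their spliced mRNAs have often been copied back into the genome as retrocopies without introns, most of which are annotated as pseudogenes. A few parent genes also have diverged, intron-less or tissue-restricted paralogs, among them Rpl10l and Rpl39l, which are known from the male germ line, and Rpl3l, known from heart and skeletal muscle.

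By role, 42 parents encoded large subunit proteins, 31 small subunit proteins and 3 stalk proteins, and these 76 are called canonical here. The other parents were 8 variant paralogs and Rps19bp1, which matches the symbol rule but encodes a protein that binds Rps19. Of the 152 copies, 98 were listed as pseudogenes, 53 as protein coding and 1 as a processed transcript, and 145 had a single exon block. All 85 parents reached at least 10 counts in at least 2 libraries, and so did 39 copies. A further 78 copies had counts but stayed under that filter, and 35 had no count in any library.

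The libraries held 19810855 to 31453888 gene counts, so that 3 counts, the limit that a count of 0 allows, corresponded to 0.0954 to 0.151 counts per 1000000 gene counts (CPM). The sorted library stood apart before any member was looked at: 29.7% of its read pairs did not align, against 2.17% to 3.85% elsewhere, and 29.6% of its uniquely aligned pairs fell outside annotated features, against 11.3% to 16.4%. It held 235 CPM of Cdx2, the sorted reporter's gene, against 3.16 to 40.2 CPM. Its summed level of 6 trophectoderm markers was 3702 CPM, against 25.3 to 1214 CPM in the other 7. Most of that sum came from Krt8 and Krt18, at 1731 and 1595 CPM. Elf5 was at 0.909 CPM, and Hand1, at 36.6 CPM, was inside the 1.03 to 540 CPM of the other 7. The summed level of 5 fibroblast markers in the sorted library was 80.8 CPM, against 6.67 to 15.4 CPM. The part of these differences in the results below was not tested. The 6 mesoderm markers summed to 582 and 1540 CPM in the mesoderm progenitors and to at most 58.7 CPM elsewhere. The 6 embryonic stem cell markers summed to 2846 to 4070 CPM in the unsorted mESC libraries, 2010 CPM in the sorted cells, and 900 and 83.9 CPM in mesoderm on days 3 and 4. The 4 primitive endoderm markers summed to 119 and 336 CPM in mesoderm, 127 CPM in 2iJ+B-A on day 11, and 3.77 to 34.8 CPM in the other 5.

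The parent genes together took 7.11% to 10.25% of all gene counts. The share was 7.57% in 2i, 8.84% in 2iJ, 10.25% in 2iJ+B-A on day 2, 7.93% on day 5 and 7.53% on day 11. It was 7.88% and 7.66% in the mesoderm progenitors on days 3 and 4, and 7.11% in the sorted cells (95% Wilson interval 7.10% to 7.12%, for counting error only). The day 2 culture in 2iJ+B-A was the highest, and the sorted cells from the same medium and day were the lowest. In groups, the mean was 8.57% ± 1.47 (SD, n = 3) in 2iJ+B-A and 7.77% ± 0.16 (SD, n = 2) in the mesoderm progenitors, so that the difference between them was within the spread of the former. The high value on day 2, which is 1 library, ran through nearly the whole set, since 69 of the 76 canonical parents had their highest CPM there. The sorted library held the lowest value of 32 canonical parents, 2i that of 16, mesoderm day 4 that of 12 and 2iJ+B-A day 11 that of 11. The same counts over all genes were not computed, so these cannot be read as particular to the canonical parents. The ratio of large to small subunit counts stayed between 1.13 and 1.23. A CPM is a share of the library, so fewer cells of a type and less RNA per cell cannot be told apart in these bulk samples.

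**Figure D1:**
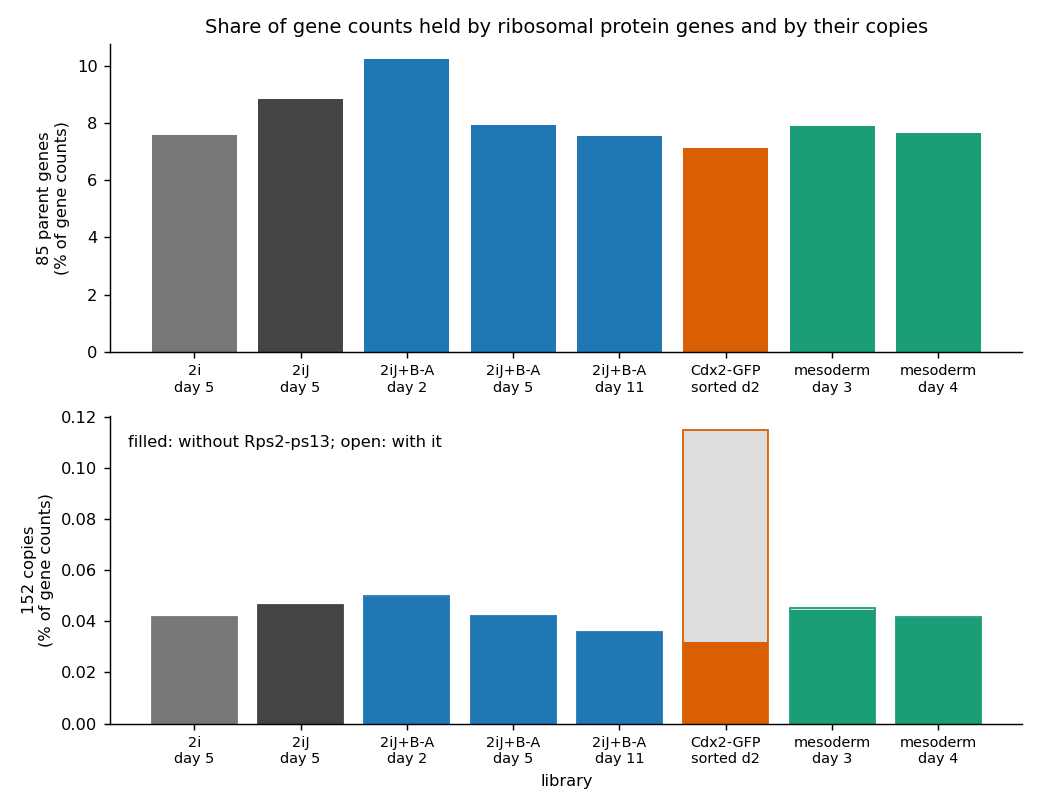
Share of all gene counts (%, vertical axes from 0) taken by the 85 parent genes (top) and by the 152 copies (bottom), 1 bar for each of the 8 libraries, with no error bars since each bar is 1 library. The parents range from 7.11% to 10.25%, and the copies stand at 0.0359% to 0.0497% except in the sorted cells, where they reach 0.1146%, or 0.032% (filled bar) without Rps2-ps13.

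The canonical parents were steady genes. Their coefficient of variation over the 8 libraries had a median of 14.8%, with a range of 8.3% to 41.2%, whereas the 2184 other genes with a mean of at least 100 CPM had a median of 21.4%. Over the 7 R1 libraries alone, the medians were closer, at 14.1% and 17.8%. The other genes were not matched to the canonical parents by level. Among the lowest values were those of Rps4x (8.29%), the X-linked gene of a small subunit protein, and of the large subunit genes Rpl15 (8.46%), Rpl10 (9.36%) and Rpl7a (9.72%). Rps4x lay between 1567 and 1998 CPM in all 8 libraries. The 5 highest were Rpl3l (89.2%), Rpl10l (77.7%), Rpl39l (77.5%), Rps4y2 (47.5%) and Rps3a (41.2%), so 4 of the 5 were variant paralogs. Rps3a and Rpl26 (38.9%), a large subunit gene, were the canonical parents with the widest spread, and both had their extreme value in the sorted library.

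Scaled to the length of the coding sequence, the mean level of the canonical parents ran from 124.3 CPM per kb for Rpl29 to 5459 CPM per kb for Rps14, a small subunit gene whose partial loss is known to cause anaemia in human. The next in order was the stalk gene Rplp1 at 4148 CPM per kb. Rpl29 stood apart at the bottom, since the next lowest, Rps3a, had 853.1 CPM per kb. Rpl29, which encodes a large subunit protein, had 44.1 to 82.2 CPM in the 8 libraries. Gm8210, an annotated pseudogene with 3 differences to the 483 coding bases of Rpl29, held 71.3 to 99.0 CPM, so that more unique reads were counted on the copy than on the parent in each library.

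How far unique reads can be assigned was read from the genome. Of all 126-base windows of each parent coding sequence, the length of the reads, the share that occurs letter for letter outside the gene had a median of 59.6% over the 76 canonical parents. In 22 of them, Rpl10, Rps6 and Rps29 among them, every window had such a second match, and in 8, among them Rps3 and Rpl8, none did. The 49 canonical parents with at least 50% of repeated windows had a median level of 2060 CPM per kb of coding sequence, and the others had 2102 CPM per kb. Pairs of reads reach into the untranslated parts and across exon junctions, where a second match can be lost, and the counts hold uniquely aligned pairs only.

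**Figure D2:**
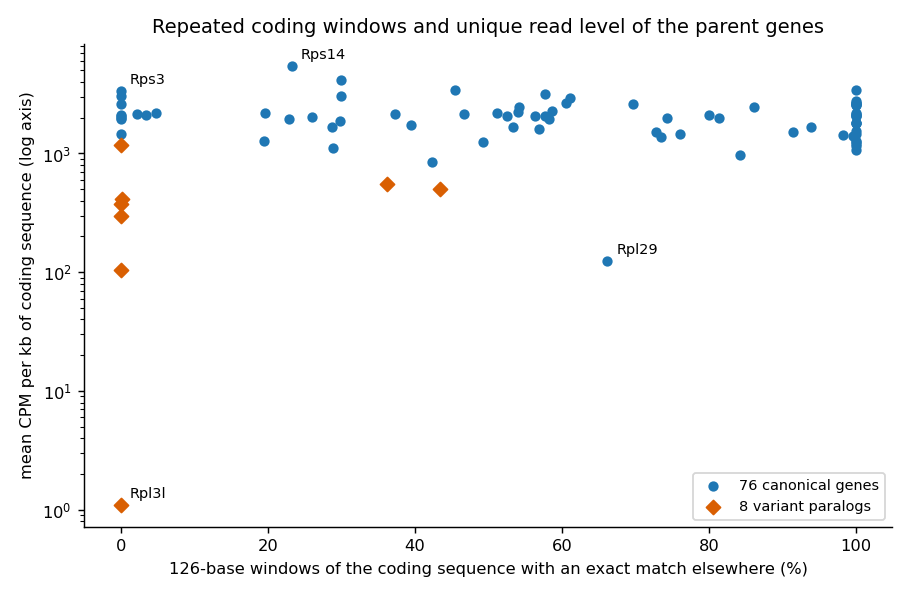
Share of 126-base coding windows with an exact match elsewhere in NCBIM37 (horizontal, %) against mean level over 8 libraries (vertical, CPM per kb of coding sequence, log axis), 1 point per gene. The 76 canonical genes lie at similar levels from 0% to 100% repeated windows, with Rpl29 (66.2%, 124.3 CPM per kb) far below them, and the 8 variant paralogs, Rpl3l lowest, mostly lie below the canonical genes.

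Between mesoderm progenitors (2 libraries) and mESCs in 2iJ+B-A (3 libraries), the canonical ribosomal protein genes did not pass the test, and 4 of the 8 variant paralogs fell. In edgeR's quasi-likelihood test with Benjamini-Hochberg adjustment over 16961 genes, 0 of 76 canonical parents were called, with the lowest adjusted p at 0.135, and 0 of them had an unadjusted p under 0.05. Over all genes tested, 11.5% were called higher and 15.5% lower in the mesoderm progenitors. The median log2 fold change of the canonical parents was -0.14, against -0.03 over all genes, and single values lay between -0.48 and 0.41. Leaving out 2iJ+B-A day 2 brought the median to 0.02, and Rps2 was then called higher, by 0.49 on the log2 scale (adjusted p of edgeR 0.0468). Of the 8 variant paralogs, 4 were called lower and 0 higher, and their median was -1.33, also with Rpl3l set at its 3-count bound. The libraries of 2iJ+B-A come from 3 days of culture, so their spread holds time as well as sampling. Those of mesoderm come from days 3 and 4, with IWP-2 on day 4 only, so their spread holds day and treatment too. Between these days T went from 547 to 6.30 CPM and Pou5f1 from 701 to 35.4 CPM. Nothing in the labels says that cultures were separate.

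By subunit, the medians were -0.16 for the 31 small subunit genes, -0.12 for the 42 large subunit genes and -0.19 for the 3 stalk genes, with 27, 31 and 2 of them below 0. Over all genes, 8689 of 16961 were below 0. The lowest canonical values were those of Rps29 (-0.48 ± 0.22) and Rps23 (-0.44 ± 0.19), a small subunit protein of the decoding centre, and the highest were those of Rpl29 (0.41 ± 0.23) and Rps2 (0.29 ± 0.21). Rps19, the gene most often mutated in Diamond-Blackfan anaemia, had 975 and 952 CPM in mesoderm and 1198, 978 and 1004 CPM in 2iJ+B-A, so that mesoderm was below all 3 by little (-0.13 ± 0.16). Rpl5 and Rpl11, which bind Mdm2 when ribosome assembly fails, had log2 fold changes of -0.24 ± 0.22 and 0.10 ± 0.18, and in both genes the groups overlapped. Rpl38, known for its part in the patterning of the axial skeleton, had 319 and 257 CPM in mesoderm and 324, 300 and 207 CPM in 2iJ+B-A, and the groups overlapped.

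Rpl39l and Rpl10l went from well detected to nearly absent. Rpl39l (ENSMUSG00000039209; NCBIM37 chr16:10170319-10175004) was counted at 41.6, 66.3 and 76.5 CPM in 2iJ+B-A on days 2, 5 and 11, and at 0.286 and 0.162 CPM in mesoderm on days 3 and 4. The groups were far apart, by -8.06 ± 0.47 on the log2 scale (SE; edgeR adjusted p = 0.000934). Rpl10l (ENSMUSG00000060499; chr12:67384368-67385388) had 82.6, 82.2 and 88.9 CPM in 2iJ+B-A and 0.286 and 0.549 CPM in mesoderm, which is -7.63 ± 0.33 on the log2 scale (edgeR adjusted p = 0.000556). The mesoderm values rest on 9 and 5 counts for Rpl39l and on 9 and 17 for Rpl10l. Their canonical partners were not called: Rpl39 had 342 to 537 CPM and Rpl10 had 824 to 1016 CPM in 2iJ+B-A, against 393 and 424 CPM and 1036 and 1058 CPM in mesoderm.

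Both paralogs can be told apart from their partners by sequence, which is why they are shown here, with the bases that differ in capitals. Rpl39 and Rpl39l have coding sequences of 156 bases, given whole, with 23 differences (85.3% identity), of which 16 lie at the third codon base. None of their 126-base windows had an exact match elsewhere in the genome.
Rpl39: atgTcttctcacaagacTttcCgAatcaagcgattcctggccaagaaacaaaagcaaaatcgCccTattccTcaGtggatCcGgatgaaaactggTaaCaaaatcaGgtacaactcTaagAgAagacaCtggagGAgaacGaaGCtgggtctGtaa
Rpl39l: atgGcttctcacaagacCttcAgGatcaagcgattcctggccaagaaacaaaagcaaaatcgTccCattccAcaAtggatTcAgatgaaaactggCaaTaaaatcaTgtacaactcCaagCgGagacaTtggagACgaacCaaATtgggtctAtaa
Rpl10 and Rpl10l, both of 645 coding bases, differ at 98 positions (84.8% identity), of which 89 lie at the third codon base. Coding positions 94 to 213 are shown.
Rpl10: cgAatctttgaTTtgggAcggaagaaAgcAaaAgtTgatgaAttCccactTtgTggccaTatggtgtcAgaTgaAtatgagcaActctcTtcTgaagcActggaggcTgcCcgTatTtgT
Rpl10l: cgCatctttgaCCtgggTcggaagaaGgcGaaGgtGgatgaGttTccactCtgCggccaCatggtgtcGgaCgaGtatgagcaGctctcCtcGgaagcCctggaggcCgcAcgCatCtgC

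As a share of the paired counts, scaled to coding length, Rpl10l made up 13.2% of Rpl10 plus Rpl10l in 2i, 11.4% in 2iJ and 7.52% to 9.07% in 2iJ+B-A. It made up 2.94% in the sorted cells and at most 0.052% in mesoderm. All 520 coding windows of Rpl10 had an exact match elsewhere in the genome, against 0 of 520 for Rpl10l. Unique counting can thus leave out reads of Rpl10 more than of Rpl10l, and these shares may be too high. Rpl39l made up 14.6% of its pair in 2i, 18.7% in 2iJ and 7.19%, 14.1% and 18.3% in 2iJ+B-A on days 2, 5 and 11. It stood at 6.59% in the sorted cells, close to the unsorted day 2 culture, and at 0.073% and 0.038% in mesoderm. In the test of sorted cells against 2iJ+B-A, Rpl10l was called lower (26.05 CPM, log2 fold change -1.65 ± 0.31, edgeR adjusted p = 0.0393). That call was lost when any of the 3 2iJ+B-A libraries was left out, where the calls over all genes fell as well. Rpl39l, at 22.5 CPM in the sorted cells, missed the threshold (log2 fold change -1.40 ± 0.41, edgeR adjusted p = 0.0935).

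Rps4y2 (ENSMUSG00000063171; chr6:148303178-148304120), a paralog of Rps4x with 80.1% identity over 789 aligned bases, fell less far. It had 372, 392 and 322 CPM in 2iJ+B-A, 102 and 43.7 CPM in mesoderm, and 360 CPM in the sorted cells. The mesoderm difference was -2.31 ± 0.36 on the log2 scale (edgeR adjusted p = 0.008). The sorted cells, with 18.5% of the pair of Rps4x and Rps4y2, lay inside the range of the mESC cultures, whose highest share was 20.1% on day 5 of 2iJ+B-A. Rpl10l, Rpl39l and Rps4y2 were thus low in the mesoderm libraries, where the summed embryonic stem cell markers were also lowest (900 and 83.9 CPM), and the part of the cell type in these values was not tested. Rpl3l had 16 to 19 counts in the 2iJ+B-A libraries, 37 in 2iJ, 58 in 2i and 0 in both mesoderm libraries. It was called lower in mesoderm (edgeR adjusted p = 0.00974), with its highest level, 2.06 CPM, in 2i.

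The other variants did not pass in mesoderm. Rpl22l1, a paralog whose expression Rpl22 is known to repress, had 258 and 265 CPM in mesoderm, above the 214, 136 and 154 CPM of 2iJ+B-A, by 0.65 ± 0.22 on the log2 scale (edgeR adjusted p = 0.0760). It passed with DESeq2 (adjusted p = 0.0454), and in edgeR once 2iJ+B-A day 2 was left out (0.0229). Its share of the pair with Rpl22 was 28.6% and 30.2% in mesoderm, 15.8% to 22.4% in the 5 unsorted mESC libraries and 13.0% in the sorted cells. Rps27l, a paralog of Rps27 known as a p53 target, had a log2 fold change of -0.03 ± 0.25. Rpl36al had -0.35 ± 0.18 and Rpl7l1 had -0.05 ± 0.17.

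**Figure D3:**
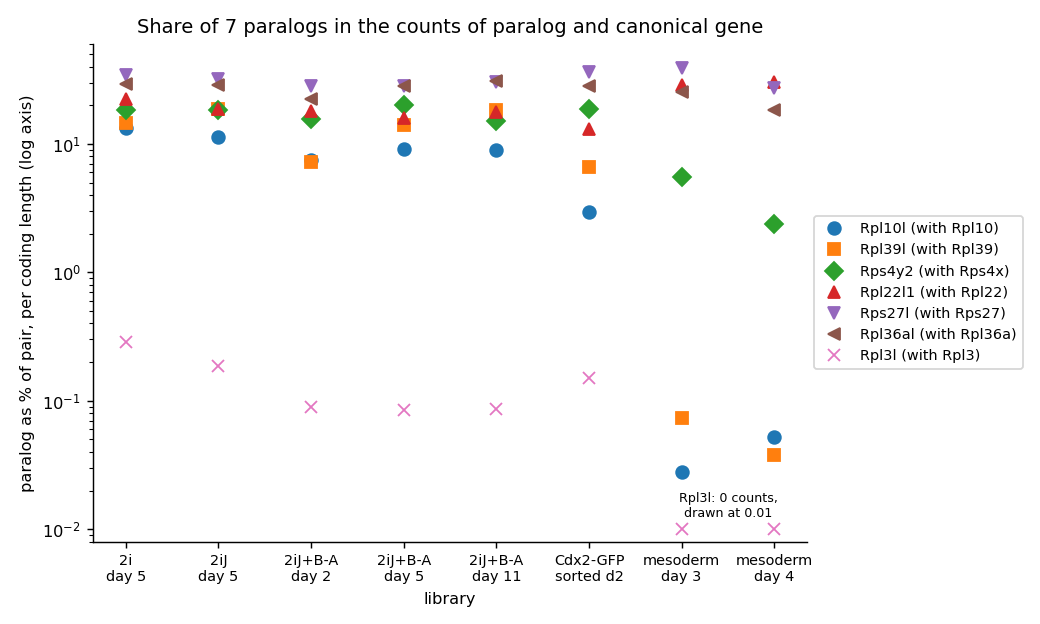
Share of 7 variant paralogs in the summed counts of the paralog and its canonical partner, scaled to coding length (vertical, %, log axis), 1 point per library and no error bars; Rpl3l, with 0 counts in mesoderm, is drawn there at 0.01%. Rpl10l and Rpl39l fall from 7.19% or more in the unsorted mESC cultures to 0.073% or less in both mesoderm libraries, while Rps27l and Rpl36al stay within a narrow band. Every coding window of Rpl10, Rps27 and Rpl36a had an exact match elsewhere, so the shares of their paralogs may be too high.

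**Figure D4:**
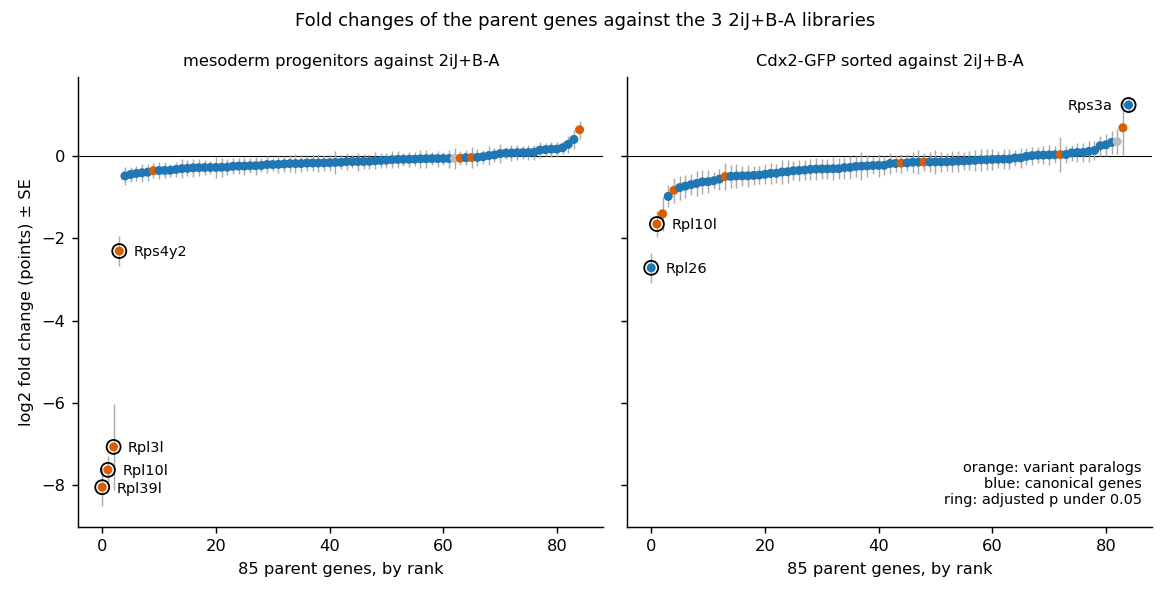
Log2 fold change (vertical) of the 85 parent genes by rank (horizontal), with SE bars, for mesoderm progenitors (left) and sorted cells (right) against the 3 2iJ+B-A libraries, with canonical genes in blue, variant paralogs in orange, Rps19bp1 in grey and rings for an edgeR adjusted p under 0.05. In mesoderm the 4 ringed genes are variant paralogs, and the value of Rpl3l, with 0 counts in mesoderm, depends on the prior count; in the sorted cells Rps3a, Rpl26 and Rpl10l are ringed.

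Genes that work with the ribosome were seldom called as well. Of 16 translation genes outside the symbol rule, such as the elongation factor Eef1a1 and the ribosomal fusion protein Fau, 1 was called higher in mesoderm (6.25%, against 11.5% of all genes) and 0 lower. This was Tpt1, which encodes the translationally controlled tumour protein (2440 against 1389 CPM, log2 fold change 0.82 ± 0.20, edgeR adjusted p = 0.0262). Of 38 tested ribosome assembly and RNA polymerase I genes, 0 were higher and 1 was lower (2.63%, against 15.5% of all genes), Ubtf, the upstream binding factor of rDNA transcription (262 against 417 CPM, -0.66 ± 0.17, edgeR adjusted p = 0.0325). The median of the assembly list was -0.18, with 31 of the 38 genes below 0, against -0.03 and 8689 of 16961 over all genes.

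Within the mESC media, no member was called. In edgeR, 2iJ+B-A (3 libraries) against 2iJ (1 library) gave 0% of all genes tested, with 1290 of 16961 genes at an unadjusted p under 0.05 and 309 called by DESeq2. No parent had an unadjusted p under 0.05 in that comparison, 1 copy did, Rpl21-ps8, and DESeq2 called no member. The median log2 fold change of the parents was -0.11, and 76 of 85 were below 0, against 0.03 and 8017 of 16961 over all genes. The 2iJ+B-A libraries came from days 2, 5 and 11, and the 2iJ library from day 5. The parent share was 10.25%, 7.93% and 7.53% on those days of 2iJ+B-A, against 8.84% in 2iJ. The median of the canonical parents was -0.10, and became -0.26 without day 2, -0.03 without day 5 and -0.02 without day 11. Its size thus depended on the days pooled, and the part of the day in it was not tested. With 1 library each, 2iJ and 2i were compared without a test. No member was 2-fold apart, against 1.55% of all genes, but 79 of the 85 parents were higher in 2iJ, with a median log2 ratio of 0.24 and a range of -0.40 to 0.48. Over all genes, 9139 of 16961 were higher in 2iJ, and the median was 0.02. The 16 translation genes had a median of 0.14 and the assembly genes one of -0.04, and there is no replicate check on these differences.

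The copies held 0.0359% to 0.0497% of gene counts in the 7 R1 libraries, which is 4.77 to 5.73 counts per 1000 parent counts. Against the coding sequence of the parent of the same root symbol, 149 of the 152 copies could be aligned, with a median identity of 97.1% and a range of 78.1% to 100%. The 39 copies above the count filter had a median identity of 99.4%, and the 110 aligned copies under it had 95.7%. Only 27 copies reached 1 CPM in any library, 8 reached 10 CPM and 4 reached 50 CPM. Rpl3-ps1 (chrX:12779697-12780906), with 2 differences to the aligned coding bases of Rpl3, was the most abundant by its mean. It lay between 129 and 189 CPM in all 8 libraries and made up 10.7% to 14.4% of its counts plus those of Rpl3. Rpl38-ps2, identical to Rpl38 over the 213 coding bases, had 36.6 to 67.5 CPM, and Rpl34-ps1 had 23.4 to 39.7 CPM. In the sorted cells Rpl3-ps1 (129 CPM) and Rpl38-ps2 (36.6 CPM) were slightly below their lowest R1 value, and Rpl34-ps1 was inside the R1 range.

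In the sorted cells, single copies stood far outside the R1 libraries. The highest value of any copy was that of Rps2-ps13 (ENSMUSG00000081684), at 826 CPM in that library. In the 7 R1 libraries it had 5.98 and 2.71 CPM in mesoderm on days 3 and 4, 0.782 CPM in 2i, 0.701 CPM in 2iJ and 0.326, 0.445 and 0.586 CPM in 2iJ+B-A. Rps13-ps1 went the other way, with 3 counts (0.151 CPM) in the sorted cells and 65.4 to 104 CPM elsewhere. That is 432-fold under the lowest R1 library (exact Poisson interval for the count, 148-fold to 2095-fold). Rpl15-ps2 had 0 counts in the sorted cells and 18.6 to 35.8 CPM elsewhere, at least 123-fold lower when 3 counts are taken as the floor of the library. Rpl17-ps5 had 39.9 CPM against 0.890 to 2.13 CPM. These names were partly chosen with the sorted library known, so their values are a description of it.

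Against 2iJ+B-A, 2 of 39 tested copies were called higher and 2 lower in the sorted cells, where 3.34% of all genes were higher and 2.08% lower. The calls were Rps2-ps13 (log2 fold change 10.85 ± 0.47, edgeR adjusted p = 0.000991), Rpl17-ps5 (4.86 ± 0.48, adjusted p = 0.00935), Rps13-ps1 (adjusted p = 0.00248) and Rpl15-ps2 (adjusted p = 0.00615). The median over the 39 copies was 0.02, and -0.08 over all genes. Without replicate libraries of the sorted cells, the test takes their spread from the other groups. Leaving out a 2iJ+B-A library cut the calls over all genes as well. Rpl17-ps5 lost its call when day 2 or day 5 of 2iJ+B-A was left out (adjusted p = 0.0534 and 0.0572), and the other 3 calls were kept there.

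By a rule of size, 2 copies were at least 4-fold above the highest and 2 at least 4-fold below the lowest of the R1 libraries, out of 8 copies with 10 CPM in any library. At that level the share was 2.36% over all 11053 genes and 21.8% over the 110 genes annotated as pseudogenes. Copies and look-alikes were not removed from these 110. Rps2-ps13, Rpl17-ps5 and Rpl14-ps1 reached the level through the sorted library alone. Of the 5 copies with at least 10 CPM in all 7 R1 libraries, Rps13-ps1 and Rpl15-ps2 were at least 4-fold below the lowest value, against 38 of 7562 genes (0.503%). Of the 82 parents at that level, 1 was, Rpl26.

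The 3 copies with the largest differences and the look-alikes of the called parents Rpl26 and Rps3a are shown by the stretch of 120 coding bases where parent and copy differ most, from the reference genome, with differing bases in capitals. They are shown so that the number and place of the differing letters can be seen. Rps2-ps13 (chrX:50251765-50252646, plus strand) covers the 882 coding bases of Rps2 (chr17:24855061-24858874) without a gap and differs at 7 positions, all of them at the third codon base. Coding positions 12 to 131 hold T60A and A84G, counted from the A of the start codon, with the base of the parent first.
Rps2: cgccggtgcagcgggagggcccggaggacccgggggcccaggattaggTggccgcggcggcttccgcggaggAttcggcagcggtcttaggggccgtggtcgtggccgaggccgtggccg
Rps2-ps13: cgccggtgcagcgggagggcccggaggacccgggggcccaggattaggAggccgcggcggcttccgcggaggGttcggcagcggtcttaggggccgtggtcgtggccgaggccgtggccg
Rps13-ps1 (chr8:89571619-89572074, plus strand) differs from Rps13 (chr7:123475021-123477704) at 2 of 423 positions, T411C and G423T, and the last 120 bases are shown.
Rps13: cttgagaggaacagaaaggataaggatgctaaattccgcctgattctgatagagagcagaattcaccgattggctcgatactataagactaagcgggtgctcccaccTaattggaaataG
Rps13-ps1: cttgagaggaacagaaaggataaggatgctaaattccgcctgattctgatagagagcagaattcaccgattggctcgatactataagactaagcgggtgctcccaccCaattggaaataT
Rpl15-ps2 (chr9:71908720-71909406, plus strand) has 8 differences in 615 bases to Rpl15 (chr14:19100337-19103905), 4 of them at the third codon base. Positions 278 to 397 hold C322T, G323A and C354G.
Rpl15: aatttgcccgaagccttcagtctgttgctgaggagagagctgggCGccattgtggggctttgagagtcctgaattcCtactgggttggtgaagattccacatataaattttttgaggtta
Rpl15-ps2: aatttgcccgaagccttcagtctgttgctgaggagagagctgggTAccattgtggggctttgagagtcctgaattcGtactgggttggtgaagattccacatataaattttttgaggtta
Gm15772 (chr5:3236389-3236907, plus strand), an annotated pseudogene that has no ribosomal symbol, differs from Rpl26 (chr11:68715085-68720491) at 2 of 438 bases, C177T and T288C, shown within positions 172 to 291.
Rpl26: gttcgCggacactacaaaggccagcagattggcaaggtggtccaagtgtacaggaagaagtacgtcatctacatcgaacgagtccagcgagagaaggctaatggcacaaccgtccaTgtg
Gm15772: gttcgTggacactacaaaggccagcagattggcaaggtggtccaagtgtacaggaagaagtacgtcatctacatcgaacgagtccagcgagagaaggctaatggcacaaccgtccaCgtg
Gm9000 (chr13:109460773-109461634, plus strand), listed as protein coding, differs from Rps3a (chr3:85941862-85946624) at 9 of 795 bases, 7 of them at the third codon base. Positions 178 to 297 hold T216C and T260C.
Rps3a: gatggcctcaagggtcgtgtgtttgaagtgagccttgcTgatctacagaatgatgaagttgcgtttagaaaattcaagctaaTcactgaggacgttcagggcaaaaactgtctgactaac
Gm9000: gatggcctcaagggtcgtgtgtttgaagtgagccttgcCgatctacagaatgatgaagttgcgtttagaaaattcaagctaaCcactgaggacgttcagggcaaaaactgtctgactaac

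The canonical parents had a median log2 fold change of -0.20 between the sorted cells and 2iJ+B-A, with 61 of 76 below 0. Over all genes, 9170 of 16961 were below 0. Without 2iJ+B-A day 2, the day of the sorted cells, the median of the canonical parents was -0.04. Their median level was 824 CPM in the sorted cells, and 1165, 937 and 871 CPM in 2iJ+B-A on days 2, 5 and 11. The 3 parents called between the sorted cells and 2iJ+B-A were Rpl10l, above, Rpl26 and Rps3a, or 1.18% of the 85 parents higher and 2.35% lower, against 3.34% and 2.08% of all genes. At least 1 look-alike gene was found for 75 of the parents, called or not. Rpl26 had 127 CPM in the sorted cells and 682 to 1129 CPM elsewhere (log2 fold change -2.72 ± 0.37, edgeR adjusted p = 0.0205). Gm15772 had 442 CPM in the sorted cells and 4.23 to 7.22 CPM elsewhere. Rps3a had 1357 CPM in the sorted cells and 502 to 646 CPM elsewhere (1.25 ± 0.18, edgeR adjusted p = 0.0243). Gm9000 had 1.97 CPM in the sorted cells against 313 to 455 CPM, and Gm10119, with 4 differences to Rps3a, had 5.20 against 57.9 to 112 CPM. Rps27, a small subunit gene, had the next lowest canonical value, 386 CPM against 566 to 953 CPM in the R1 libraries (-0.98 ± 0.27, edgeR adjusted p = 0.0809). It was called by DESeq2 (adjusted p = 0.0114).

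In both families of Rpl26 and Rps3a the parent and its look-alike genes lay on opposite sides of the R1 range. Leaving out a 2iJ+B-A library cut the calls over all genes too, as given at the end, so a lost call is not particular to these genes. The call of Rpl26 was lost when 2iJ+B-A day 5 or day 11 was dropped (edgeR adjusted p = 0.0700 and 0.0589), and that of Rps3a without any of the 3 (0.0534, 0.123 and 0.0832 without day 2, 5 and 11).

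For Rpl26 and Rps3a, the sum of the family moved less than the parent. With all look-alike genes added to their parent before the fit, an alternative chosen after seeing the data, Rpl26 stood at -0.56 on the log2 scale (edgeR adjusted p = 0.314) and Rps3a one of 0.42 (adjusted p = 0.241), and of the 3 parents Rpl10l alone was still called (adjusted p = 0.0405). Adding only the copies that the symbol rule takes left both calls. Rps2 had 1490 CPM in the sorted cells, below the 2147 to 3146 CPM of the R1 libraries, which against 2iJ+B-A is -0.73 ± 0.28 on the log2 scale (edgeR adjusted p = 0.162). The sum of Rps2 and its copies and look-alikes was 2330 CPM in the sorted cells, inside the 2158 to 3163 CPM of the R1 libraries. The sum for Rpl26, 570 CPM, stayed below 689 to 1137 CPM, and that for Rps3a, 1364 CPM, stayed above 897 to 1203 CPM. Across the 84 parents with a coding sequence, 34 were below and 2 above all R1 libraries in the sorted cells, and of the summed families 36 were below and 1 above. The share of all genes outside the R1 range by this rule was not computed, so these counts cannot be read as particular to the parents.

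**Figure D5:**
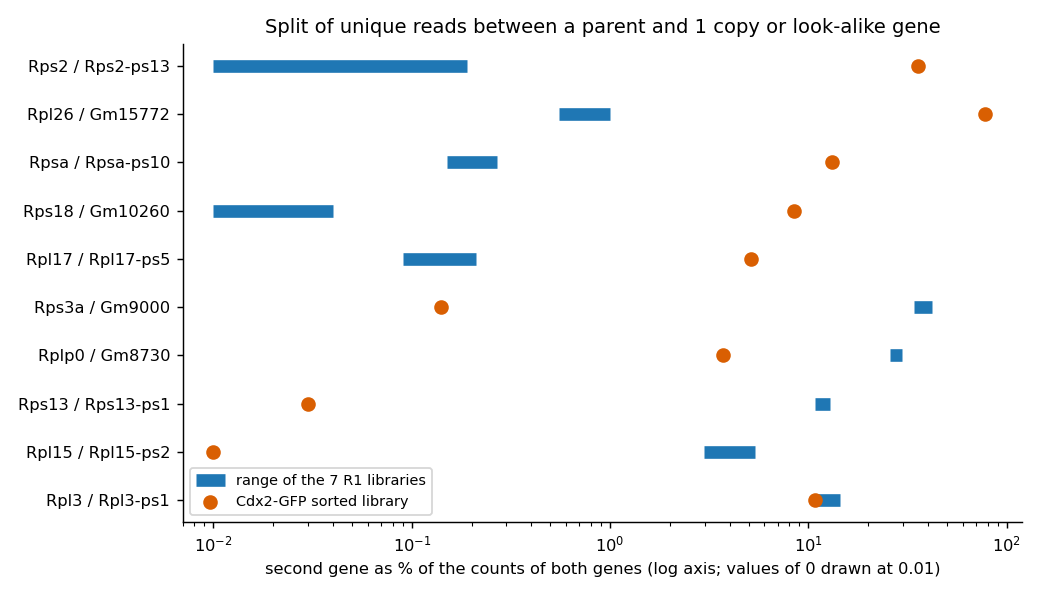
Counts of a copy or look-alike gene as a share of its counts plus those of the parent (horizontal, %, log axis), for 10 pairs, most of them chosen after their values were seen. The bar spans the 7 R1 libraries, the point is the sorted library, and Rpl15-ps2, at 0 there, is drawn at 0.01%. Rps2-ps13 takes 35.7% in the sorted cells and at most 0.19% elsewhere, Gm9000 takes 0.14% against 34.0% to 41.8%, and Rpl3-ps1 takes 10.7%, at the low end of the R1 range.

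Other pairs, also chosen after their values were seen, were split differently in the sorted cells. Rpsa, the laminin receptor and a small subunit protein, had 1482 CPM in the sorted cells against 2035 to 2955 CPM, and Rpsa-ps10, which the symbol rule does not take, had 225 against 3.28 to 5.82 CPM. Rps18 had 854 CPM against 1280 to 1877 CPM, and Gm10260 had 78.4 against at most 0.572 CPM. For the stalk gene Rplp0, the look-alike Gm8730 fell from 356 to 539 CPM in the R1 libraries to 51.4 CPM (log2 fold change against 2iJ+B-A -3.05 ± 0.31, edgeR adjusted p = 0.0102), while Rplp0 itself, at 1336 CPM, was inside the range of 1022 to 1403 CPM. In all, 540 annotated genes that the symbol rule does not take had at least 90% identity to a parent coding sequence over at least 50% of both, and 21 of them reached 10 CPM. Of these 21, 3 were at least 4-fold above and 7 at least 4-fold below the R1 libraries in the sorted cells (47.6%, against 2.36% of all genes at that level). Over the 110 annotated pseudogenes at that level, from which copies and look-alikes were not removed, the share was 21.8%. The 3 above, Gm10260, Rpsa-ps10 and Gm15772, reached 10 CPM through the sorted library alone. Of the 11 look-alike genes with at least 10 CPM in all 7 R1 libraries, 7 were at least 4-fold below, against 0.503% of all genes.

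In the mesoderm progenitors, 1 of the 39 tested copies was called higher (2.56%) and 0 lower, against 11.5% and 15.5% of all genes. Rps2-ps13 was higher there than in 2iJ+B-A (log2 fold change 3.24 ± 0.40, edgeR adjusted p = 0.00413), at a level of 2.71 to 5.98 CPM, or at most 0.19% of its counts plus those of Rps2. Rps13-ps1 (83.3 and 65.4 CPM in mesoderm, 72.3 to 104 CPM in 2iJ+B-A) and Rpl15-ps2 (35.8 and 26.7 CPM against 18.6 to 34.6 CPM) were not called. The median over the copies was -0.10.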

How the data were processed

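Bulk RNA was sequenced from 8 samples as directional libraries (NEBNext) of paired 126-base reads. The authors trimmed the reads with cutadapt, aligned them with STAR 2.4.2a (bcl2fastq 2.17 made the read files, per the submitters' notes) to NCBIM37 and deposited raw counts of uniquely aligned read pairs per gene. The annotation release is not given in the sources used here. The reverse-strand column was used, and names came from GENCODE vM1, which named 37205 of 37620 IDs. Pairs outside genes and multimapping pairs stayed out of library sizes (11.3% to 29.6% and 5.22% to 7.01%). Batch correction by ComBat, used in the study, is not part of these counts.

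Counts were fitted with edgeR 4.0.16 (R 4.3.3, limma 3.58.1; TMM, quasi-likelihood, Benjamini-Hochberg threshold 0.05) over all 8 libraries with 1 coefficient for each of 5 groups, leaving 3 residual degrees of freedom and a common biological coefficient of variation of 0.363. The 16961 genes tested reached 10 counts in 2 or more libraries. Groups with 1 library take their spread from the 2 others, whose libraries differ in day. The labels do not say that libraries of a group are separate cultures, so p-values measure the spread between these libraries only. DESeq2 1.42.0 was an alternative. The fit was tested on simulated data for mesoderm progenitors against 2iJ+B-A only, and not for a group with 1 library. CPM is the count per 1000000 gene counts. Intervals (Wilson or exact Poisson, 95%) and the floor of 3 counts cover counting error only.

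Coding sequences were compared with blastn 2.17.0 (e-value 1e-20) and Biopython 1.88 under Python 3.11.15, on the NCBIM37 reference. Look-alike genes had at least 90% identity over at least 50% of both sequences. The members and gene lists were chosen with earlier results of these data known. Named were a fixed set of parents and copies, called members of at least 10 CPM and the 5 parents with the highest and the 5 with the lowest coefficient of variation. Some genes under this rule are not reported here. Other genes named, look-alikes included, were chosen after their values were seen.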

Additional observations from a re-analysis of the deposited data

How the results depend on the processing

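The counts of called parents and copies and the summed shares were each taken under the alternatives. Of these values, 85 stayed within 1.5 times of the reported one or moved by less than the replicate spread. Another 2 counts were larger and 4 smaller by more than that. The 85 include the member counts of 2iJ+B-A against 2iJ, which were 0 in each setting. With 0 of 16961 genes called there in the reported fit, these counts say little about stability. For the named genes, each taken under each alternative, 268 values stayed on their side of the threshold, called or not, 4 came to pass it and 12 ceased to. With the filter on 1 library, 2 copies were called in mesoderm in place of 1. In the sorted cells DESeq2 called 5 parents in place of 3, adding Rps27 and Rpl39l, and with look-alike genes summed (chosen after seeing the data) 1 was called. Leaving out 1 library gave 0 to 3 called parents and 3 to 6 called copies in the sorted cells, and 4 to 6 parents and 1 copy in mesoderm. The counts over all genes moved more: 919 genes in the sorted comparison became 2665 with DESeq2, 1911 with only the groups compared, 1390 without a filter, 1987 and 2052 without a mesoderm library, and 91, 37 and 117 without the day 2, 5 and 11 library of 2iJ+B-A. In mesoderm, 4584 genes became 2019 without day 5 and 2666 without day 11. With 2i and 2iJ pooled, 150 genes and 0 members were called in place of 0, and with DESeq2 309 genes were. The causes were not tested. No paired analysis was possible because the labels give the groups no shared replicate numbers.

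The sorted cells are 1 library of another line, so line, sort, unaligned share and group cannot be told apart. Unique counting leaves out reads that fit a parent and a copy equally, and this share is not known per gene. Copies with 0 counts allow up to 0.0954 to 0.151 CPM per library.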

Other observations

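A group of 4 annotated pseudogenes that match Rps15a, a small subunit gene, and carry no ribosomal symbol differed between the unsorted mESC libraries and the rest. They were chosen after their values were seen. Gm14166 (chr2:152011027-152011418), with 4 differences to Rps15a, had 28.0 to 50.1 CPM in the 5 unsorted mESC libraries, 0.382 and 0.485 CPM in mesoderm and 0.757 CPM in the sorted cells. Gm10196, Gm11968 and Gm13048, on chromosomes 5, 11 and 4, had 4.77 to 11.9, 7.88 to 11.9 and 4.71 to 7.30 CPM in the unsorted mESC libraries and at most 0.404, 1.46 and 0.101 CPM in the other 3. All 4 were lower in mesoderm than in 2iJ+B-A (edgeR adjusted p = 0.00104, 0.00434, 0.00514 and 0.00273 in the order named), where 15.5% of all genes were called lower. The 4 were picked from 540 look-alike genes for their values, so these p-values only describe them. In the sorted cells, which are 1 library, all 4 had a lower CPM than in each unsorted mESC library. Unlike the copies described with the sorted cells, these genes were also low in R1-derived mesoderm.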
